A study of Mus musculus with 9 samples.

Results

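The sarcomeric myosin heavy chains are the motor proteins of the thick filament in striated muscle. The 8 genes described here, Myh1, Myh2, Myh3, Myh4, Myh6, Myh7, Myh7b and Myh8, were chosen by symbol from the Ensembl identifiers of the deposited count table, and all 8 were found among its 47729 genes. The cells were C2C12, a mouse myoblast line: myoblasts are muscle precursors that withdraw from the cell cycle and fuse into multinucleate myotubes. The series compared cells in which the clock gene Per1 or Per2 had been knocked out with CRISPR-Cas9 against control cells, before and during differentiation. Polyadenylated RNA was sequenced, and the data are read counts per gene.

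There were 9 libraries, 1 for each of 3 cell populations on each of 3 days. The population called WT carried a guide RNA without a target, Per1KO is the Per1 knockout and Per2KO the Per2 knockout. Day 0 cells were undifferentiated and grown in 10% fetal bovine serum, and day 3 and day 5 cells were differentiating in 5% horse serum. The labels do not say whether a knockout population is 1 clone or a pool. With no replicate of any population and day, the tests treat the 3 days of a population, or the 3 populations of a day, as its replicates, and every p-value below speaks of these 3 populations only. Although the cells are a cultured line, the tissue given in the labels is whole muscle. Of the markers of other cell types, 3 of 4 for endothelium (Pecam1, Cdh5 and Kdr), 3 of 5 for blood and immune cells (Ptprc, Lyz2 and Hbb-bs) and 3 of 4 for adipocytes (Adipoq, Plin1 and Fabp4) were each under 1 CPM (the depth-scaled count) in all 9 libraries. The other markers on these lists reached 3.60 CPM (Tek), 1.98 (Cd68), 2.12 (Hba-a1) and 13.0 (Cebpa). Fibroblast and fibro-adipogenic markers were present, and their summed levels are given beside the genotype results.

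Each sarcomeric heavy chain is encoded by a gene of its own, and muscle fibres are classed by the chain they carry. Myh3 (embryonic) and Myh8 (perinatal) are the developmental chains, which mark newly formed and regenerating fibres. Myh2 (type IIa), Myh1 (type IIx) and Myh4 (type IIb) are the adult fast chains. Myh7 is the slow chain of type I fibres and of the heart ventricle, Myh6 the alpha chain of cardiac muscle, and Myh7b an ancient relative that hosts a microRNA. Transcription factors of the myogenic family bind E-boxes, and MEF2 proteins bind an AT-rich element, in the control regions of many muscle genes.

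The developmental and fast genes lie side by side on chromosome 11 of mouse build GRCm38, all on the plus strand, in the order Myh3 (67078300 to 67102291), Myh2 (67171027 to 67197517), Myh1 (67200052 to 67224575), Myh4 (67238029 to 67260446) and Myh8 (67277124 to 67308634). Myh6 (54941921 to 54966927) and Myh7 (54970684 to 54994626) are neighbours on the minus strand of chromosome 14, and Myh7b (155611212 to 155634307) stands alone on the plus strand of chromosome 2. All 8 matched an entry in RefSeq's table of transcript starts on GRCm38.p6. The 250 bases before the start are printed for 5 of them, 5′ to 3′, picked by their results: Myh3 supplied most of the counts, Myh1 was second in mean level, Myh4 was the gene whose level passed the test for a late rise, Myh8 was lower in Per2KO, and Myh7b was lower in both knockouts. Myh6, whose window is not printed, was also lower in both knockouts. Capitals mark the E-box (CANNTG) and the MEF2 consensus, both sought on both strands.
Myh3, chr11:67078050-67078299, plus strand: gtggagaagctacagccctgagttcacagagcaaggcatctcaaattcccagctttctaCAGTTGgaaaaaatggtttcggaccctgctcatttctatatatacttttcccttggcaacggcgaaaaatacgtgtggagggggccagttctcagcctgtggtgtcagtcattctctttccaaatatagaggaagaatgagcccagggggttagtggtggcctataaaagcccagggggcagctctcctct
Myh8, chr11:67276874-67277123, plus strand: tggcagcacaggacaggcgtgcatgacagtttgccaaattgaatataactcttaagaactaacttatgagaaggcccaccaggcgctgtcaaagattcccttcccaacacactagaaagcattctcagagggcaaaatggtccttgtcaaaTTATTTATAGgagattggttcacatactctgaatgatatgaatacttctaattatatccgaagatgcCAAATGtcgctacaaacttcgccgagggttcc
Myh1, chr11:67199852-67200101, plus strand: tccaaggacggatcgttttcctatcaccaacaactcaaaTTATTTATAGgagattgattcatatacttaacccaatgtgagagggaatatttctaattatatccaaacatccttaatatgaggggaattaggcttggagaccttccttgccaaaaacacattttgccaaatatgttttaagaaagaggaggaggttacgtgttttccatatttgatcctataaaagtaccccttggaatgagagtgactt
Myh4, chr11:67237562-67237811, plus strand: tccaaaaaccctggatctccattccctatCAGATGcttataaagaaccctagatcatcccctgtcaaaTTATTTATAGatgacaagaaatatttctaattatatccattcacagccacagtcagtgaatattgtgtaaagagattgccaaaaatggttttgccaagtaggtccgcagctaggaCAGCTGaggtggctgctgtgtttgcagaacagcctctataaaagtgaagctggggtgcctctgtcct
Myh7b, chr2:155610993-155611242, plus strand: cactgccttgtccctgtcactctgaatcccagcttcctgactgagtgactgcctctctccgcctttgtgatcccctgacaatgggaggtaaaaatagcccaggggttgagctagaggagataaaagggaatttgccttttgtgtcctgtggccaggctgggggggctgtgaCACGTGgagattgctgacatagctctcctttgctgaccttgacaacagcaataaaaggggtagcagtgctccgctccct

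An E-box stood in the upstream window of 6 of the 8 genes, all but Myh2 and Myh1, against 66.2% of all 32851 RefSeq windows of the same length. The MEF2 consensus stood in 3 of 8, Myh8 (from position -99), Myh1 (from -211) and Myh4 (from -182), against 2.92% of all windows. TATAAA, on either strand, was in 4 of 8 (12.4% of all windows). In Myh8, Myh1 and Myh4 a match lay inside the MEF2 match, and Myh8 had no other. Matches nearer the start began at -29 in Myh3, -32 in Myh1 and -31 in Myh4, and Myh4 had a further match from -213. The E-box of Myh7b, from -79 to -74, was the form CACGTG, which no other member's window held and 6.02% of all windows did. CACGTG is known as the E-box form that the clock activators CLOCK and BMAL1 bind. It was sought only after the sequences had been seen, and the window of Myh6, also lower in both knockouts, did not hold it.

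The neighbouring genes also shared longer runs. The 14-base run TTCTAATTATATCC began at -54 in Myh8, -125 in Myh2, -160 in Myh1 and -158 in Myh4, and these were the 4 of 32851 windows that held it. The 15-base run TCAAATTATTTATAG, whose end is part of the MEF2 match, was found in 3 windows: Myh8 at -104, Myh1 at -216 and Myh4 at -187. The RefSeq start equals the GENCODE gene start for Myh3, Myh8, Myh2 and Myh7, and lies 50 bases from it for Myh1, 217 for Myh4, 31 for Myh7b and 320 for Myh6. A match is a string of letters and was not tested as a binding site.

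**Figure D1:**
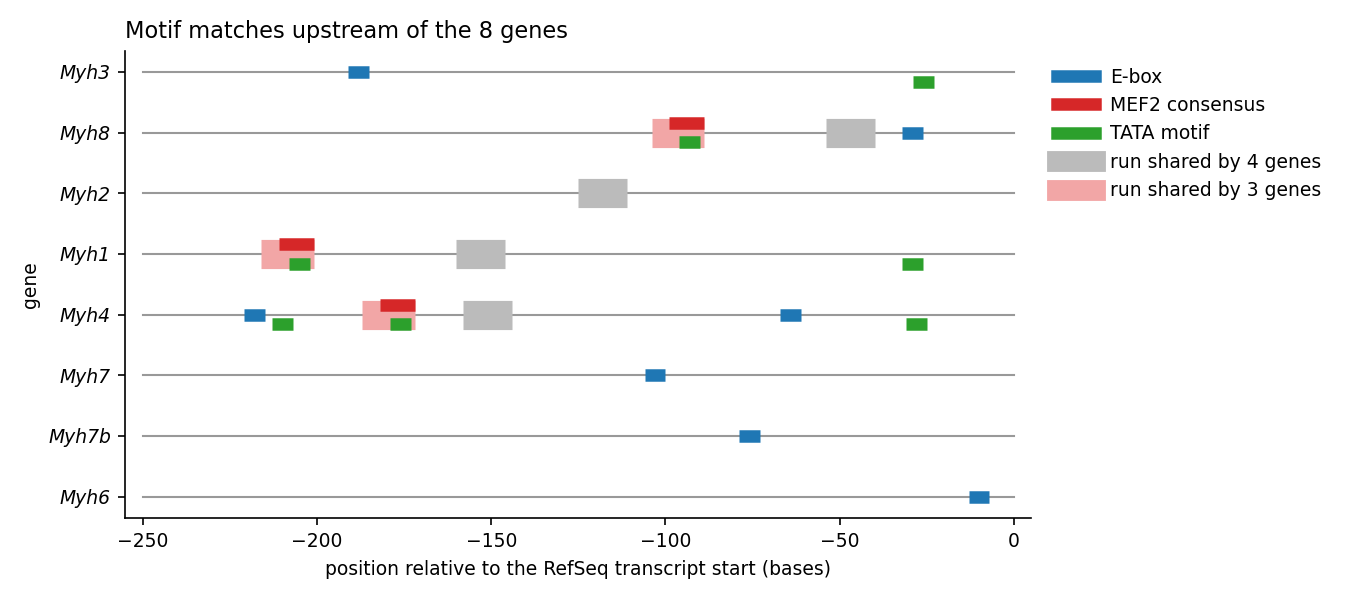
Motif matches in the 250 bases before the RefSeq transcript start of the 8 genes. The horizontal axis is the position relative to the start in bases, coloured bars are motif matches, and wide pale bars are the 14-base run shared by Myh8, Myh2, Myh1 and Myh4 and the 15-base run shared by Myh8, Myh1 and Myh4.

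Total counts lay between 5020385 and 6773320 for WT and between 41997763 and 48051824 for the knockouts, a mean ratio of 7.82. The limit that a count of 0 allows, 3 counts, equals 0.424 to 0.660 CPM for WT and 0.0591 to 0.0731 CPM for the knockouts. Depth, and a lane suffix carried by the WT titles alone, separate WT from both knockouts, so these and genotype cannot be told apart. Per1 mRNA did not pass the test between Per1KO and WT (log2 fold change -0.34 ± 0.22 SE, edgeR adjusted p = 0.310), while Per2 was lower in Per2KO (-1.02 ± 0.24, edgeR adjusted p = 0.0230). Neither transcript differed between the knockouts at the threshold, so these mRNA levels do not identify which knockout a library is. Counts of 0 and the intervals below cover counting error only.

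Myh3 was by far the most abundant of the 8 in every library. In WT its level was 140 CPM on day 0, 4851 on day 3 and 7214 on day 5. In Per1KO the levels were 2.52, 2360 and 3216 CPM, and in Per2KO 0.787, 2236 and 2423 CPM. Both differentiated days stood above day 0 in each population, and WT was the highest on each day. Between libraries of 1 population, day 3 exceeded day 0 34.7-fold in WT (95% counting interval 32.5 to 37.0), 938-fold in Per1KO (787 to 1128) and 2840-fold in Per2KO (2085 to 3975). Fewer differentiated cells and less RNA per cell cannot be told apart in such bulk samples. Myh8, the perinatal chain, had 1.55, 35.2 and 173 CPM in WT on days 0, 3 and 5. It had 0.0811, 26.9 and 50.9 CPM in Per1KO, and in Per2KO a count of 0 on day 0 and then 16.4 and 32.8 CPM. Its day 5 level was above its day 3 level in each population.

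Among the fast chains, Myh1 was the most abundant. Its level in WT was 3.95, 92.0 and 498 CPM on days 0, 3 and 5. In Per1KO it was 0.568, 135 and 312 CPM, and in Per2KO 0.217, 93.3 and 174 CPM. Myh1 was therefore higher in WT on days 0 and 5, while on day 3 it was highest in Per1KO. Myh4 had 0.565, 37.0 and 127 CPM in WT, and 0.101, 20.8 and 130 CPM in Per1KO. In Per2KO it had a count of 0, then 15.1 and 81.8 CPM. Day 5 levels of Myh4 in WT and Per1KO were within their counting intervals of each other. Myh2, the scarcest fast chain, had a count of 0 on day 0 in WT and Per2KO and 2 counts in Per1KO. It reached 5.11 and 28.4 CPM on days 3 and 5 in WT, 7.85 and 14.8 CPM in Per1KO, and 5.11 and 8.55 CPM in Per2KO.

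Of the slow and cardiac chains, Myh7 had 1.13, 31.6 and 138 CPM in WT on days 0, 3 and 5. It had 0.0406, 34.7 and 97.2 CPM in Per1KO, and a count of 0, then 21.1 and 57.9 CPM in Per2KO. The day 3 levels of Myh7 in WT and Per1KO overlapped within counting error. Myh7b had 1.27, 19.5 and 17.6 CPM in WT, 0.142, 4.6 and 13.9 CPM in Per1KO, and 0.276, 4.74 and 9.43 CPM in Per2KO. On day 3 both knockouts were below WT for Myh7b by more than counting error. Myh6 was near the limit on day 0, with 2 counts in WT and 0 in both knockouts. On days 3 and 5 it had 6.75 and 29.7 CPM in WT, 3.35 and 10.3 CPM in Per1KO, and 3.00 and 6.38 CPM in Per2KO.

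**Figure D2:**
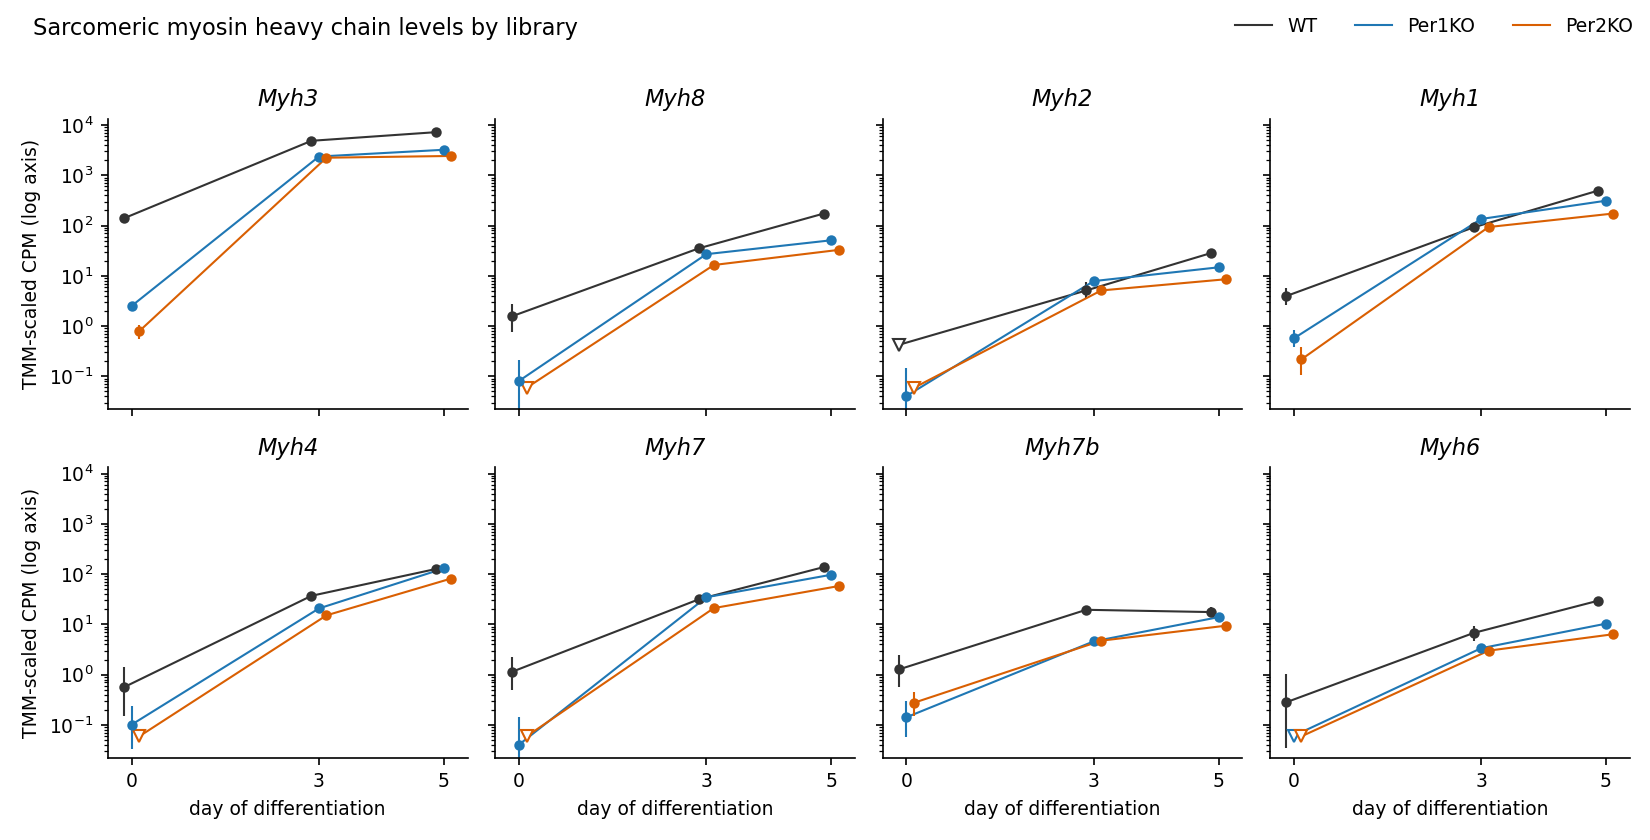
Level of each gene in each of the 9 libraries, in TMM-scaled CPM on a log axis, against the day of differentiation. Filled points carry 95% counting intervals, open triangles mark a count of 0 drawn at the level of 3 counts, and lines join the libraries of 1 population; on day 0 Myh3 is at 140 CPM in WT, 2.52 in Per1KO and 0.787 in Per2KO.

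Per kilobase of transcript, the scale on which genes can be compared, Myh3 and Myh1 were first and second on days 3 and 5 in all 3 populations. On day 5 in WT the level was 1196 CPM per kb for Myh3, 81.8 for Myh1 and 28.2 for Myh8, followed by Myh7 (22.1) and Myh4 (21.1), whose intervals overlapped. On day 5 in both knockouts Myh4 was the third, at 21.6 CPM per kb in Per1KO and 13.6 in Per2KO. Myh7 (15.6 and 9.29) and Myh8 (8.28 and 5.33) came next there, with no overlap of neighbours. On day 0 most neighbours in the order below Myh3 and Myh1 overlapped within counting error.

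Each of the 8 genes rose with differentiation: all 8 were higher on day 3 than on day 0 by edgeR's quasi-likelihood test across the 3 populations, against 18.1% of all genes tested. The smallest fitted rise was that of Myh7b (log2 fold change 4.34 ± 0.47 SE, adjusted p = 0.00054), and Myh3 rose by 8.18 ± 1.52 (adjusted p = 0.00588). Day 5 against day 0 gave the same count, 8 of 8 higher, against 23.2% of all genes. Myh4 had a fitted rise of 10.12 ± 0.52 there, Myh1 of 8.49 ± 0.74 and Myh7b of 5.25 ± 0.47. Fitted values for genes with a day 0 count of 0 depend on the prior count and are not bounds. Set against 3 counts in the day 0 library, Myh4 on day 5 was 1386-fold higher in Per2KO, and Myh7 980-fold. The lower 95% counting limits of these 2 rises were 1126-fold and 797-fold. The rise of Myh3 lost the threshold when Per1KO was left out (adjusted p = 0.139 for day 3 and 0.0909 for day 5), with 7.10 and 7.34 as its log2 fold changes. On day 3 it also lost it with no filter on low counts (adjusted p = 0.0657), and over its alternatives the adjusted p ran from 7.62e-12 to 0.139.

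Together the 8 genes held 149, 5078 and 8225 CPM in WT on days 0, 3 and 5. They held 3.49, 2593 and 3845 CPM in Per1KO, and 1.28, 2395 and 2794 CPM in Per2KO. Their share of the counts of all heavy chains, including the non-muscle and smooth muscle genes Myh9, Myh10, Myh11 and Myh14, was 4.58%, 71.8% and 78.6% in WT. It was 0.170%, 57.7% and 70.4% in Per1KO, and 0.0527%, 56.6% and 60.7% in Per2KO. The 4 non-muscle and smooth muscle genes summed to 1620 to 3099 CPM over the 9 libraries. Myh9 made up most of this sum, at 1479 to 2827 CPM, and Myh11 did not exceed 0.220 CPM. Myh14, at 1.62 to 12.8 CPM, rose from day 0 to day 5 (log2 fold change 1.935 ± 0.23, edgeR adjusted p = 0.00041). Myh10, a non-muscle chain, fell from day 0 to day 3 (log2 fold change -1.0 ± 0.13, edgeR adjusted p = 0.00102).

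The composition of the sarcomeric pool was dominated by Myh3 and moved toward adult chains between days 3 and 5. The Myh3 share of the 8 genes' summed counts was 95.5% on day 3 and 87.7% on day 5 in WT. It was 91.0% and 83.7% in Per1KO, and 93.4% and 86.7% in Per2KO. The share was thus lower on day 5 in 3 of 3 populations, with no overlap of the exact Clopper-Pearson 95% intervals. Myh3 shares few stretches with its relatives: 11.2% of the 31-base words of its transcript occur in another gene. After Myh7b, its own count is thus the least exposed to misassigned reads. Counted per kb of unshared words, its day 3 and day 5 shares lay between 79.0% and 94.2%. Of the Myh3 words, 6.27% occur in Myh2, 5.52% in Myh8, 4.28% in Myh1 and 3.47% in Myh4. Because Myh3 is so abundant, its reads could add to the counts and shares of these scarcer genes, which was not tested.

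The 3 fast chains together took 2.64% of the pool on day 3 and 7.94% on day 5 in WT. They took 6.31% and 11.9% in Per1KO, and 4.74% and 9.45% in Per2KO. Both knockouts thus had a larger fast share than WT on each of these days, beyond counting error, with 1 library per value. The larger share was not a larger level on day 5, when the fast chains summed to 653.1 CPM in WT, 456.3 in Per1KO and 263.9 in Per2KO. On day 3 they summed to 134.1 CPM in WT, 163.6 in Per1KO and 113.5 in Per2KO. Myh1 made up most of the fast share, with 6.05% on day 5 in WT, 8.11% in Per1KO and 6.21% in Per2KO. Myh4 had a day 5 share of 1.55% in WT, 3.38% in Per1KO and 2.93% in Per2KO. Myh8 had a day 5 share of 2.1% in WT, 1.32% in Per1KO and 1.17% in Per2KO. On day 3 its share was 0.693%, 1.04% and 0.685%, so of these days WT was the highest on day 5 alone. Myh7 had 1.68%, 2.53% and 2.07% on that day.

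On day 0 the shares rest on 1053 summed counts in WT, 172 in Per1KO and 65 in Per2KO. Myh3 held 94.1% in WT (95% interval 92.5% to 95.5%), 72.1% in Per1KO and 61.5% in Per2KO. In Per2KO, Myh7b held 21.5% with 14 counts and Myh1 16.9% with 11 counts. There Myh2, Myh4, Myh6, Myh7 and Myh8 had a count of 0, for which the 95% interval of each share reaches 5.52%. Reads of close relatives may be assigned to either gene. The coding sequences of Myh6 and Myh7 are 91.5% identical and those of Myh1 and Myh2 91.0%, and 30.4% to 39.7% of the 31-base words of Myh1, Myh2, Myh4, Myh6, Myh7 and Myh8 occur in another gene. How the authors treated such reads is not given in the sources used here. Whether strand was used is not given either, which touches 5 members with exon bases shared with genes on the other strand. Myh7b shares 37 with Trpc4ap, Myh1 515 with the antisense RNA Myhas (33 counts in all) and Myh2 237 with 9430073C21Rik (154 counts in all). Myh7 shares 523 with Gm31251, 484 with Mhrt and 142 with Gm29015, and Myh6 114 with Gm49130. Mhrt and Gm29015 had 0 counts, and Gm31251 and Gm49130 were not analysed here.

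**Figure D3:**
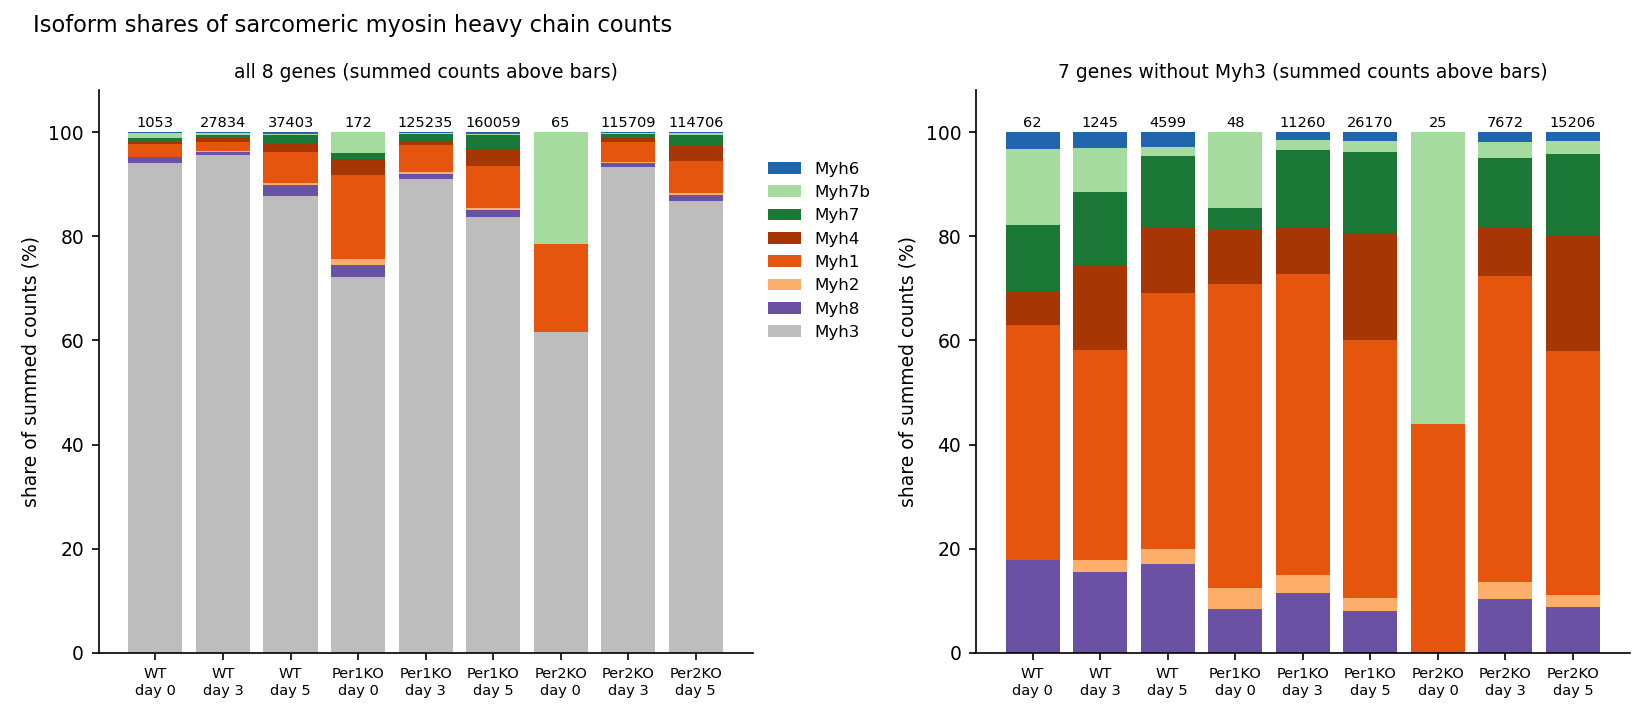
Share of each gene in the summed counts of all 8 genes (left) and of the 7 genes without Myh3 (right), in percent, for each of the 9 libraries, with the summed counts above the bars. The Myh3 share is lower on day 5 than on day 3 in each population, and the day 0 bars of the knockouts rest on 172 and 65 counts.

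Between days 3 and 5, Myh4 alone of the 8 passed the test, with a log2 rise of 2.31 ± 0.31 (edgeR adjusted p = 0.0122), against 0.698% of all genes called higher. The ratio of day 5 to day 3 for Myh4 was 3.43 in WT, 6.25 in Per1KO and 5.41 in Per2KO. The call of Myh4 was lost without Per1KO (2.13, adjusted p = 0.520) and without Per2KO (2.24, adjusted p = 0.102), where 0 genes in all were called. Over all alternatives its adjusted p ran from 0.00223 to 0.520. The other late differences were positive without passing: 1.65 for Myh7 (adjusted p = 0.114), 1.57 for Myh6 (0.0621), 1.39 for Myh1 (0.261), 1.33 for Myh8 (0.216), 1.26 for Myh2 (0.119), 0.90 for Myh7b (0.293) and 0.31 for Myh3 (0.936). With WT left out, all of these but Myh3 passed, at adjusted p from 0.00286 to 0.0368. That fit called 742 of the 13324 genes higher, against 93 with all 9 libraries. Myh2 also passed with DESeq2's Wald test (adjusted p = 0.0172), which called 339 genes higher. Myh6 passed with no filter on low counts (edgeR adjusted p = 0.0237), where 161 genes were called higher.

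The populations differed in which chain had the larger late ratio. Myh1 was 5.41-fold higher on day 5 than on day 3 in WT, 2.31-fold in Per1KO and 1.86-fold in Per2KO. Myh2 was 5.55-fold, 1.88-fold and 1.67-fold higher, and Myh8 4.92-fold, 1.89-fold and 2.0-fold. WT thus had the larger late ratio for these genes and the smaller one for Myh4. Myh7 had ratios of 4.37, 2.81 and 2.75, and Myh6 of 4.40, 3.08 and 2.13. Myh7b was the exception: its ratio was 0.901 in WT (95% counting interval 0.666 to 1.22), 3.03 in Per1KO and 1.99 in Per2KO. Myh3 had ratios of 1.49, 1.36 and 1.08. Each ratio compares 2 libraries, and the differences between populations in these late ratios were not tested.

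**Figure D4:**
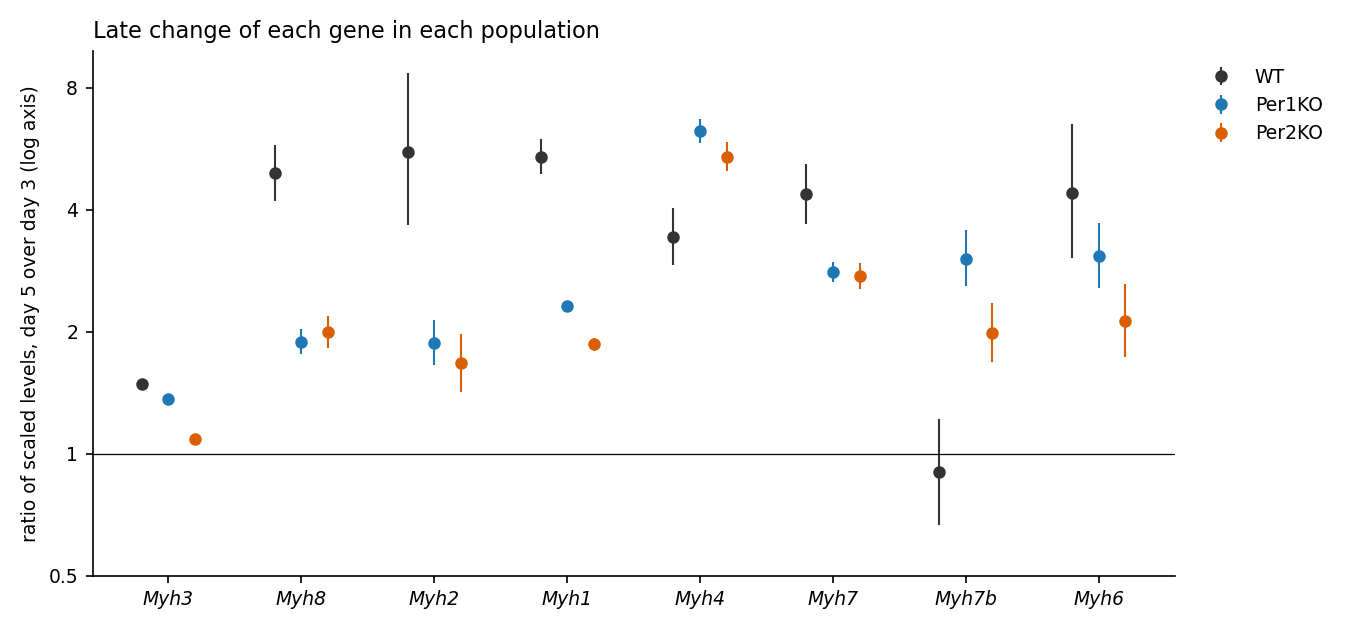
Ratio of the day 5 to the day 3 level of each gene in WT, Per1KO and Per2KO, on a log axis, with 95% counting intervals. Myh4 has its lowest ratio in WT (3.43), and Myh7b is the gene whose WT ratio (0.901) is below 1.

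Against WT over the 3 days, 2 of the 8 genes were lower in Per1KO, against 10.1% of all genes called lower. These were Myh7b (log2 fold change -1.47 ± 0.42, edgeR adjusted p = 0.0445) and Myh6 (-1.41 ± 0.40, adjusted p = 0.0432). In Per2KO 3 of 8 were lower, against 10.6% of all genes: Myh8 (-2.08 ± 0.54, adjusted p = 0.0329), Myh6 (-1.83 ± 0.41, adjusted p = 0.0180) and Myh7b (-1.62 ± 0.42, adjusted p = 0.0325). Both comparisons use the same 3 WT libraries. With both knockouts set against WT, Myh8 (-1.73), Myh6 (-1.62) and Myh7b (-1.54) were again lower, against 14.1% of all genes, and 0 members were higher in any of the 3 comparisons, against 9.26%, 9.31% and 12.2% of all genes called higher in them. These calls are close to the threshold. Leaving out day 3 ended all of them (adjusted p from 0.0593 to 0.333), and so did leaving out day 5 for Myh6 and Myh8 (0.263 to 0.398) and leaving out day 0 for Myh7b in Per1KO (0.0877). With no filter on low counts Myh7b in Per1KO (0.0636) and Myh8 in Per2KO (0.164) and in both knockouts (0.150) did not pass, and with DESeq2 Myh6 in Per1KO did not (0.0509). Without day 5 the Myh7b change in Per1KO was -2.35. Over all alternatives the adjusted p of these calls ran from 0.000171 to 0.398.

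Myh3 had the largest fitted difference and did not pass: -3.11 ± 1.30 in Per1KO (edgeR adjusted p = 0.135) and -3.46 ± 1.33 in Per2KO (adjusted p = 0.110). Its difference varied with the day. On day 0 it was 55.7-fold lower in Per1KO (95% counting interval 46.1 to 67.6) and 178-fold lower in Per2KO (130 to 250). On day 3 it was 2.06-fold and 2.17-fold lower, and on day 5 2.24-fold and 2.98-fold. With day 0 left out, Myh3 passed in both knockouts, at -1.11 in Per1KO (adjusted p = 0.0123) and -1.35 in Per2KO (adjusted p = 0.00686). DESeq2's Wald test also called it over all 3 days, at adjusted p of 0.0216 and 0.00874. Over all alternatives the adjusted p of Myh3 ran from 0.0123 to 0.440 in Per1KO and from 0.00686 to 0.394 in Per2KO. Without day 0, Myh4 (-0.96, adjusted p = 0.0308) and Myh7 (-0.96, adjusted p = 0.0220) passed in Per2KO as well. Of the 13324 genes tested, the fits without day 0 called 2814 in Per1KO and 3138 in Per2KO, in either direction. With all 3 days the counts were 2575 and 2652.

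Day by day, the single-library differences of Myh3, Myh1 and Myh8 were wider on day 0 than on days 3 and 5. Of the 8 genes, 5 reached 1 CPM on day 0, and Myh1, Myh7, Myh7b and Myh8 did so in WT alone, so no count of lower members is given for that day. Myh1 was 6.96-fold lower in Per1KO and 18.3-fold lower in Per2KO. Myh8 was 19.2-fold lower in Per1KO (95% counting interval 5.68 to 82.5), on 4 counts. In Per2KO it had 0 counts against 11 in WT, which is at least 26.3-fold lower against the limit of 3 counts and at least 18.0-fold lower once the counting error of WT is included. Myogenin (Myog), the factor that drives terminal differentiation, stood at 124 CPM on day 0 in WT, 5.35 in Per1KO and 2.91 in Per2KO. Its part in the day 0 difference was not tested.

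On day 3, 2 members in Per1KO and 5 in Per2KO were at least 2-fold lower, against 9.26% and 10.0% of genes. Myh1 was 1.47-fold higher in Per1KO than in WT (95% counting interval 1.34 to 1.61), and Myh2 1.54-fold higher (1.05 to 2.34). In Per2KO the ratios of Myh1 (1.02) and Myh2 (1.00) had intervals that included 1. Myh7b was 4.25-fold lower in Per1KO and 4.12-fold lower in Per2KO, the widest day 3 difference among the 8 in both. On day 5, 3 members in Per1KO and 6 in Per2KO were at least 2-fold lower, against 11.5% of genes in each. Myh8 was then 3.40-fold and 5.28-fold lower, and Myh6 2.87-fold and 4.65-fold. Myh4 was level with WT in Per1KO, at a ratio of 1.02 (95% counting interval 0.937 to 1.11), and 1.55-fold lower in Per2KO. Myh7b was 1.26-fold lower in Per1KO with an interval that included no difference (0.987 to 1.60).

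**Figure D5:**
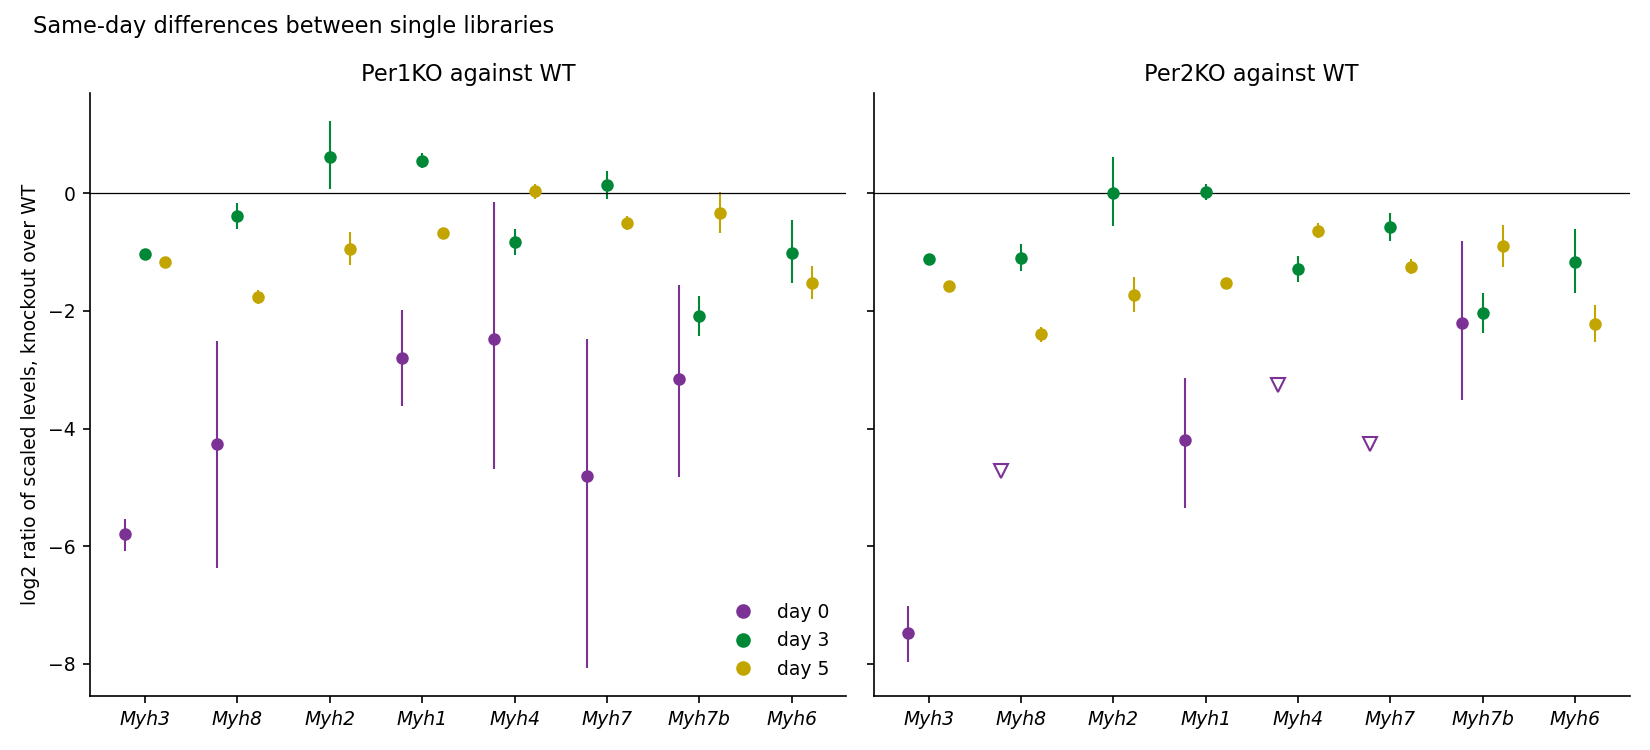
Log2 ratio of the knockout to the WT level of each gene on the same day, for Per1KO (left) and Per2KO (right), with 95% counting intervals. Open triangles set a count of 0 at 3 counts, and pairs at or under 3 counts in both libraries are left out. The day 0 points are the lowest for Myh3, Myh8, Myh1, Myh4, Myh7 and Myh7b, and for Myh7b the day 0 and day 3 intervals overlap.

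Whether the response to differentiation itself differed was tested by contrasting day 0 with the 2 differentiated days between genotypes, as an interaction. The 3 members with at least 5 counts in every day 0 library, Myh3, Myh1 and Myh7b, have interpretable values. Myh3 was below WT in both knockouts on each day, and most of all on day 0 (140 CPM in WT, 2.52 in Per1KO and 0.787 in Per2KO). A larger rise in a knockout therefore starts from a lower level and does not end above WT. For Myh3 the log2 difference in rise, knockout over WT, was 4.68 ± 0.53 in Per1KO (edgeR adjusted p = 0.0955) and 6.09 ± 0.57 in Per2KO (adjusted p = 0.0649), and neither passed. No gene of the table did (0.0% called), while 1426 and 1783 genes had an unadjusted p under 0.05 and DESeq2 called 248 and 476. DESeq2 called Myh3 in both (adjusted p = 6.52e-17 and 4.87e-26). So did the edgeR fits with a term for day 5 (0.0229 and 0.0152) and with no filter on low counts (1.72e-13 and 1.03e-18). With DESeq2's size factors Myh3 stayed above the threshold (highest adjusted p 0.0997 and 0.0651). Myh1 had 2.39 and 3.03 (adjusted p = 0.681 and 0.579) and Myh7b 2.12 and 0.80 (0.656 and 0.849). Between the knockouts the Myh3 response was 1.41 smaller in Per1KO, with 0.55 as its SE (edgeR adjusted p = 1.00), and 0 genes were called (0.0%), against 219 at an unadjusted p under 0.05 and 3 by DESeq2.

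Directly compared, Per1KO and Per2KO did not differ in any member at the threshold. The fitted log2 differences of Per1KO over Per2KO ran from 0.15 ± 0.38 for Myh7b to 0.74 ± 0.37 for Myh2, all with an edgeR adjusted p of 1.00. Again 0 genes of the table were called (0.0%), 88 had an unadjusted p under 0.05, and DESeq2 called 1. On day 5 the Per1KO level exceeded that of Per2KO for all 8 genes, by 1.33-fold for Myh3, 1.48-fold for Myh7b, 1.55-fold for Myh8, 1.59-fold for Myh4, 1.62-fold for Myh6, 1.68-fold for Myh7, 1.73-fold for Myh2 and 1.8-fold for Myh1. Every one of these counting intervals excluded a ratio of 1, but the share of all genes whose interval did so was not counted. Of the 8, 0 reached 2-fold, while 0.238% of genes were at least 2-fold higher in Per1KO. On day 3, Myh6 and Myh7b had intervals that included 1.

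Transcripts of most thick filament partners rose as well. Of 14 thick filament partners tested, 13 rose from day 0 to day 3 and 0 fell, with a median log2 fold change of 6.28 beside -0.01 for all genes, of which 18.1% rose and 16.9% fell. They included the fast light chain Mylpf (6.83 ± 0.98, edgeR adjusted p = 0.00193), the myosin-binding protein Mybpc1 (8.32 ± 0.47, adjusted p = 4.73e-05) and titin (Ttn, 3.13 ± 0.38). Fast fibre partners rose in 8 of 8 (median 5.77) and slow fibre partners in 6 of 7 (median 6.23), with Tnnc2 (8.21), of fast troponin, and Tnnc1 (6.86), of slow and cardiac troponin, among them. Mylpf and Myl1 are on both the thick filament and the fast list, and Myl2 on both the thick filament and the slow list. Of the folding and turnover genes, 6 of 8 rose and 2 fell (median 1.86). Unc45b, a chaperone of the myosin head, rose by 5.74 ± 0.78 and Trim63, a ubiquitin ligase of the thick filament, by 6.27 ± 0.30, while Unc45a and Hsp90aa1 fell by 0.90 and 0.54. Among 16 regulators tested, 7 rose and 0 fell (median 0.43), led by Myog (4.66 ± 0.77) and Mef2c (3.24 ± 0.15).

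From day 3 to day 5 the thick filament partners that rose were 4 of 14: Myl2 (3.09 ± 0.17), Mybpc1 (2.19 ± 0.24), Mybpc2 (2.12 ± 0.26) and Mylk2 (0.92 ± 0.16), with edgeR adjusted p from 0.00452 to 0.0318, against 0.698% of all genes called higher. None of these calls held without Per1KO or without Per2KO, where 0 genes were called. Mef2c (1.21) and Tbx15 (0.83) were the 2 of 16 regulators that rose on those days, with the same limit.

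The partners did not move as 1 block between genotypes. Myl2, the slow and ventricular regulatory light chain, was higher in both knockouts, by 3.43 ± 0.22 in Per1KO (edgeR adjusted p = 0.000356) and 3.06 ± 0.22 in Per2KO (adjusted p = 0.000544). On day 5 its level was 19.1 CPM in WT, 239 in Per1KO and 160 in Per2KO. The fast troponin gene Tnnc2 was also higher, by 2.0 and 1.85 (edgeR adjusted p = 0.00492 and 0.00659). In contrast the log2 fold change of Mybpc1 was -2.29 ± 0.29 in Per1KO (adjusted p = 0.00156), and -2.54 ± 0.29 in Per2KO (adjusted p = 0.00104). The shares of all genes called higher and lower were 9.26% and 10.1% in Per1KO and 9.31% and 10.6% in Per2KO. Of the 14 thick filament partners, Per1KO had 1 higher and 2 lower, with a median log2 fold change of -0.98, beside -0.02 for all genes. Per2KO had 1 higher and 3 lower, with a median of -1.19 beside -0.01. With so few genes, the thick filament counts in Per1KO are near the shares of all genes. Fast fibre partners (8 tested) had 1 higher and 2 lower in Per1KO (median -1.21) and 1 higher and 4 lower in Per2KO (median -1.53). Slow fibre partners (7 tested) had 1 higher and 0 lower in Per1KO (median -0.64) and 1 higher and 2 lower in Per2KO (median -1.07).

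Of the folding and turnover genes, Smyd1, a methyltransferase that acts with myosin chaperones, Trim63 and Unc45a were lower in both knockouts, and Hsp90aa1 was higher (0.83 in each, edgeR adjusted p = 0.00675 and 0.00671). Unc45b was lower in Per2KO (-2.44 ± 0.67, adjusted p = 0.0413). The regulators Myog (-2.80 ± 0.72 in Per1KO and -3.18 ± 0.73 in Per2KO) and Nfix (-1.15 and -1.23), a factor of the fetal muscle programme, were lower in both knockouts. Tead4 (-0.92) and Mef2c (-0.69) were lower in Per2KO. Of all genes, 9.26% were called higher and 10.1% lower in Per1KO, and 9.31% and 10.6% in Per2KO. In all, 1 of 8 folding and turnover genes was higher and 3 lower in Per1KO (median -0.50), and 1 higher against 4 lower in Per2KO (median -0.69), while 2 and 4 of 16 regulators were lower and 0 higher (medians -0.28 and -0.33). Beside these, the summed level of 5 proliferation markers ranged from 121 to 1046 CPM in WT, 211 to 1586 in Per1KO and 228 to 1135 in Per2KO. The 4 fibroblast and fibro-adipogenic markers summed to 453 to 973 CPM in WT, 170 to 1172 in Per1KO and 161 to 1310 in Per2KO. The part of these differences in the myosin values was not tested.

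The genes whose course over the 9 libraries was most like that of the 3 most abundant members were named by Pearson correlation of log2 CPM, as a description, since all points share genotype, day and depth. For Myh3 they were the skeletal actin gene Acta1 (r = 0.998), Ppfia4 (0.996), the fusion factor Mymk (0.996) and the calcium channel gene Cacna1s (0.996). For Myh1 they included Dlgap4 (0.999), Sar1a (0.996) and Sh3pxd2a (0.996). For Myh4 they were Tnnt1, of slow troponin (0.996), Ppp1r12b (0.996), the calcium release channel gene Ryr1 (0.996) and Cd36 (0.996). Among the members themselves, Myh1 was closest to Myh7 (0.998), and Myh3 was farthest from Myh2 (0.897). Acta1 had 212 CPM on day 0 in WT, 9.17 in Per1KO and 3.11 in Per2KO, the same order as Myh3.

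Other heavy chains of the sarcomeric type were nearly silent. Myh13, the extraocular chain and neighbour of Myh8, had 23 counts in all 9 libraries together and Myh15 had 0. The microRNAs that lie inside members, Mir208a in Myh6, Mir208b in Myh7 and Mir499 in Myh7b, had 0 counts, as did Mhrt, the antisense RNA that overlaps Myh7. Because polyadenylated RNA was sequenced, the counts of 0 do not measure the mature microRNAs, which carry no poly(A) tail.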

How the data were processed

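The authors deposited a table of raw read counts for Ensembl gene identifiers, which was used unchanged. CASAVA 1.8, HISAT2 2.1.0 and mm10 are named in the submitters' processing notes. The counting program, its strand setting and its treatment of reads matching several genes are not given in the sources used here. Of 47729 identifiers, 47224 matched a symbol. The others held at most 0.0328% of a library.

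Genes with at least 1 CPM in 3 of 9 libraries were tested (13324, all 8 members among them). Counts, with TMM scaling, were tested with edgeR 4.0.16 (robust quasi-likelihood, limma 3.58.1, R 4.3.3) in an additive model of genotype and day with 4 residual degrees of freedom. The genotype-by-differentiation interaction had 3. Adjusted p-values (Benjamini-Hochberg over all genes tested) under 0.05 were called. The fit was also run on simulated counts with planted changes. Apart from these and depth, each gene had the same mean in all simulated libraries. Days or populations that differ while standing in for replicates were therefore not simulated. Single libraries were compared by exact 95% counting intervals and counted at 2-fold with a prior count of 2, and shares by Clopper-Pearson intervals. Alternatives were DESeq2 1.42.0 (test, size factors), no filter, leaving out a day or population, fitting only the libraries compared, a day 5 term, a prior count of 0.5, and other denominators of shares.

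Positions are from GENCODE M21 (GRCm38). Sequences are from RefSeq (GRCm38.p6). The members, lists and tests were chosen with earlier results of these data known. Named genes were all members, Per1 and Per2, up to 4 called genes with the largest rise and fall per list and comparison, the 4 genes most like each of the 3 most abundant members (mean of at least 10 CPM; 1 of these genes is not reported here), and overlapping or neighbouring genes. The CACGTG search was added after the sequences were seen.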

Additional observations from a re-analysis of the deposited data

Results flagged for a closer look

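Between days 3 and 5, the single-library differences of Myh7b were not of the same sign in all populations. The log2 difference of day 5 from day 3 was -0.15 in WT, 1.59 in Per1KO and 0.98 in Per2KO. The WT value rests on 107 and 80 counts, and its counting interval included no change. The difference between the populations was not tested.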

How the results depend on the processing

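The number of genes called was 4664 for day 3 against day 0 (1147 to 7684 with 1 population left out), 6149 for day 5 against day 0 (2348 to 8586), and 238 for day 5 against day 3 (0 to 1393, 728 with DESeq2 and 370 with no filter). It was 2575 for Per1KO against WT (780 to 2814 with 1 day left out, 1391 with only the libraries compared), 2652 for Per2KO against WT (855 to 3138, and 1263) and 3510 for both (1262 to 3769). Between the knockouts DESeq2 called 1 gene and the fit with no filter 1, against 0. For the response to differentiation, where edgeR called 0, DESeq2, no filter and the day 5 term gave 248, 315 and 56 in Per1KO and 476, 567 and 322 in Per2KO, and DESeq2 and no filter gave 3 and 12 between the knockouts. Leaving out day 5 reversed Myh2 to 0.70 in Per1KO (range over the days left out -0.87 to 0.70) and 0.33 in both knockouts against WT (-1.30 to 0.33), and Myh7b to -0.28 between the knockouts (-0.28 to 0.31), none of them called. With only the libraries compared, the calls of Myh7b (adjusted p = 0.111) and Myh6 (0.0838) in Per1KO and of Myh8 (0.175) and Myh6 (0.0578) in Per2KO were lost. The lowest Myh3 share on days 3 and 5, 83.7%, became 79.0% per kb of unshared 31-base words and 86.1% without Myh6 and Myh7. The highest, 95.5%, became 94.2% and 96.2%. Of 396 member fold changes under alternatives, 342 kept their direction and side of the threshold, 27 lost the call, 24 gained it and 3 reversed. The causes were not tested. Depth limits the day 0 values of Myh2, Myh4, Myh6, Myh7 and Myh8, with 0 to 11 counts. The labels give no replicate numbers, and the day term of the model compares genotypes within a day.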
